A study of Mus musculus with 2 samples.

Results

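The subject is a set of 9 transcription factors that direct the formation of granulocytes, monocytes and related blood cells: Spi1, Cebpa, Cebpb, Cebpd, Cebpe, Gfi1, Irf8, Klf4 and Egr1. They were chosen by gene symbol, 9 of the 32285 genes listed in both libraries, by a rule that uses no measured value. All 9 had UMIs (unique molecular identifiers, each standing for a captured RNA molecule) in both libraries. Droplet-based single-cell RNA sequencing was applied to fetal liver of C57BL/6 mouse embryos at E14.5, collected as cells without lineage markers and with the Kit receptor. The knockout library was CD45.2(+) Vav1-iCre Brd9fl/fl and the control library CD45.2(+) Brd9fl/fl, so both groups carried the floxed Brd9 alleles and the recombinase was present in the knockout only. Vav1-iCre is a transgene that drives the recombinase in blood cells, and BRD9, a bromodomain protein, belongs to the non-canonical form of the BAF chromatin remodeller. Embryos came from floxed fathers and mothers that carried both the transgene and the floxed alleles. The sources used here do not say how many embryos each library held. Loss of BRD9 and presence of the transgene differ between the same libraries, so their effects cannot be told apart.

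PU.1, the product of Spi1, is an ETS factor needed for myeloid and B-lymphoid cells. C/EBPα opens the granulocyte-monocyte path, C/EBPε drives the later steps of granule formation, and the repressor GFI1 favours neutrophils while IRF8 and KLF4 favour monocytes and dendritic cells. Fetal liver is the main site of blood formation at this stage, and its Kit-positive cells include stem cells, early myeloid cells and many erythroid precursors.

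Promoter sequence is shown for Gfi1 and Irf8, the regulators of the opposed neutrophil and monocyte paths. The RefSeq promoter table (GRCm38.p6, 250 bases before to 50 after each start) held 5 of the 9 members: Cebpa, Cebpb, Gfi1, Irf8 and Klf4. Gfi1 (ENSMUSG00000029275) lies on the minus strand of chromosome 5 from 107716657 to 107726036 in mm10, with 4 to 7 exons in its 4 annotated transcripts (GENCODE M21). Irf8 (ENSMUSG00000041515) lies on the plus strand of chromosome 8 from 120736358 to 120756694, with 2 to 9 exons in 7 transcripts. Each gene had a pair of start sites in the table, of which both are printed for Gfi1 and the upstream start for Irf8. Capitals mark matches on either strand to any of 8 motifs, listed after the sequences.
Gfi1 upstream start, chr5:107725756-107726055, minus strand: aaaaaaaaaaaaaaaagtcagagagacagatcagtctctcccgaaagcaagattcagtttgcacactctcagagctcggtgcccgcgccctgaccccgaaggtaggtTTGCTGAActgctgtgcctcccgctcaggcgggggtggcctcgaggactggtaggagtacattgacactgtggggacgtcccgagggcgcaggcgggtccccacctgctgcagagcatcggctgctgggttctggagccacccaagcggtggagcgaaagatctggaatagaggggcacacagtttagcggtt
Gfi1 downstream start, chr5:107724294-107724593, minus strand: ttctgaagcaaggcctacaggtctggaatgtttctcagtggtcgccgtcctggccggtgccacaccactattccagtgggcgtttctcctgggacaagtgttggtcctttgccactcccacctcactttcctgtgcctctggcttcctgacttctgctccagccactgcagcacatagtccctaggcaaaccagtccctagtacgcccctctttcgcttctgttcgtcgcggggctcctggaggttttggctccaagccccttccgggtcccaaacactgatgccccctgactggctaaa
Irf8 upstream start, chr8:120736108-120736407, plus strand: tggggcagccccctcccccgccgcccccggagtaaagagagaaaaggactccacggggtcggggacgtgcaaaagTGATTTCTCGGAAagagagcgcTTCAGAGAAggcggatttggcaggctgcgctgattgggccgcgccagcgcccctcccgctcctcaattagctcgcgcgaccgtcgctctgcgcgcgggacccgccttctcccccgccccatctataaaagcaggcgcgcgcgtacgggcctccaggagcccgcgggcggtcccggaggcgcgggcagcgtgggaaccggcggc
The motifs searched were the C/EBP pattern TTGCNNAA, the PU.1 site GAGGAAGT, the interferon response repeat (GAAA, any 2 bases, GAAA), the GAS element TTCNNNGAA, the CACCC box CCACACCC, the EGR site GCGGGGGCG, the E-box CACGTG and the GFI1 core AAATCA. The upstream Gfi1 promoter held the C/EBP pattern at -143 from its start, as TTGCTGAA. This loose pattern stood in 10.8% of the 32851 promoters in the table. The downstream Gfi1 promoter held none of the 8 motifs. The upstream Irf8 promoter held the GAS element at -171 and -153, against 8.3% of all promoters, and a GFI1 core on the minus strand at -175 that overlaps the GAS match at -171. The downstream Irf8 promoter, which is not printed, held a GFI1 core on the minus strand at -226. The GFI1 core stood in 14% of all promoters. These matches describe letters in the window and no binding was measured.

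The knockout library held 6757 cells after filtering and the control library 6860, and the median cell had 36007 and 38486 UMIs. With 1 library per genotype, no difference has a replicate check, no p-value is given, and the 95% intervals printed after values reflect counting error alone. Brd9 checked the labels, with 7.06 CPM (UMIs per 1000000) in knockout against 27.2 CPM in control cells. Kit was at 63.8 and 67.0 CPM, whereas Ptprc, which encodes CD45, was at 1.58 and 1.46 CPM in erythroid cells and at 137 and 140 CPM in the stem cluster. Xist marked 58.9% of knockout and 23.0% of control cells as female, so sex and genotype are partly confounded, and values within each sex stand beside several of the results. Cells with little or no Xist were called male without requiring a Y-linked transcript, so shallow female cells could be among them. The libraries shared 16 cell barcodes.

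Cells were clustered without the 9 factors, so their own levels did not place them. Erythroid cells made up 74.0% of the knockout and 73.6% of the control cells and were taken as background. Clusters named from markers were HSC/MPP-like (stem and multipotent, led by Mecom and Hlf), lymphoid-primed-like (Ebf1, Tox), a pair of granulocyte-monocyte progenitor (GMP) clusters, neutrophil-like (Camp), monocyte/dendritic-like (Ly86), mast/basophil-like (Rnase12, Ms4a2), eosinophil-like (Prg2, Prg3), megakaryocyte-like (Pf4) and MEP-like (megakaryocyte-erythroid progenitor, Tgfbr3). The GMP clusters are called Slc24a3-led, with Ctsg and Mpo among its leading genes, and Elane-led, with Elane and Ms4a3. A cluster led by F13a1 and Ly6c2 held GMP markers but had none of them among its top 10 genes. Its leading gene F13a1 is on the monocyte/dendritic marker list, so the cluster stays unnamed. Shares of cells differed between the libraries. The Elane-led GMP cluster was 1.05% (0.822 to 1.32) of the knockout library against 3.24% (2.83 to 3.68) of the control, whereas the Slc24a3-led cluster was 1.97% and 2.22%.

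Spi1 differed by at most 0.26 on the log2 scale between the libraries in the GMP, F13a1-led, neutrophil-like and monocyte/dendritic-like clusters. The Slc24a3-led GMP cluster held 270 CPM (256 to 286) in knockout against 274 CPM (261 to 288) in control cells, a log2 ratio of -0.02 (-0.13 to 0.09). The Elane-led cluster gave 386 and 323 CPM (0.26, 0.14 to 0.38), and the F13a1-led cluster 303 and 307 CPM (-0.02). In neutrophil-like cells Spi1 was at 454 and 408 CPM and in monocyte/dendritic-like cells at 395 and 410 CPM. These myeloid clusters were followed by lower levels in mast/basophil-like (171 and 179 CPM) and HSC/MPP-like cells (158 and 151 CPM). Erythroid cells held 4.13 and 3.74 CPM. After each cell was thinned to 18526 UMIs, every cell of both GMP clusters had a Spi1 UMI in both libraries, against 5.82% and 5.74% of erythroid cells. Spi1 levels in neighbouring clusters of this order mostly had overlapping intervals, but the Slc24a3-led cluster stood above the next, the Ctla2a-led unnamed cluster at 204 and 211 CPM, in both libraries.

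Beyond the myeloid clusters Spi1 differed more where it was low or where cells were few. It was at 31.8 and 52.1 CPM in the Car1-led unnamed cluster (log2 ratio -0.71, 5.65% of all genes beyond 0.5 there) and at 16.8 and 27.4 CPM in megakaryocyte-like cells (-0.71, 6.54%), where a single control cell held 38.5% of the UMIs. In the Car1-led cluster the ratio was 0.021 (-0.89 to 1.06) in female and -0.71 (-1.29 to -0.15) in male cells. In megakaryocyte-like cells it was -0.76 in female and 0.51 in male cells, -0.31 as a mean over cells, -0.17 without the top cell of each library and -0.067 without cells that held transcripts of both sexes. Spi1 was the only member at 20 CPM or more in either library in those clusters and in MEP-like cells (33.8 and 39.8 CPM, 1.97%). In eosinophil-like cells Spi1, Cebpa, Cebpb and Cebpd were higher and Gfi1 was lower beyond 0.5 among 6 members tested, against 51.9% of all genes, with 12 and 17 cells summed.

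**Figure D1:**
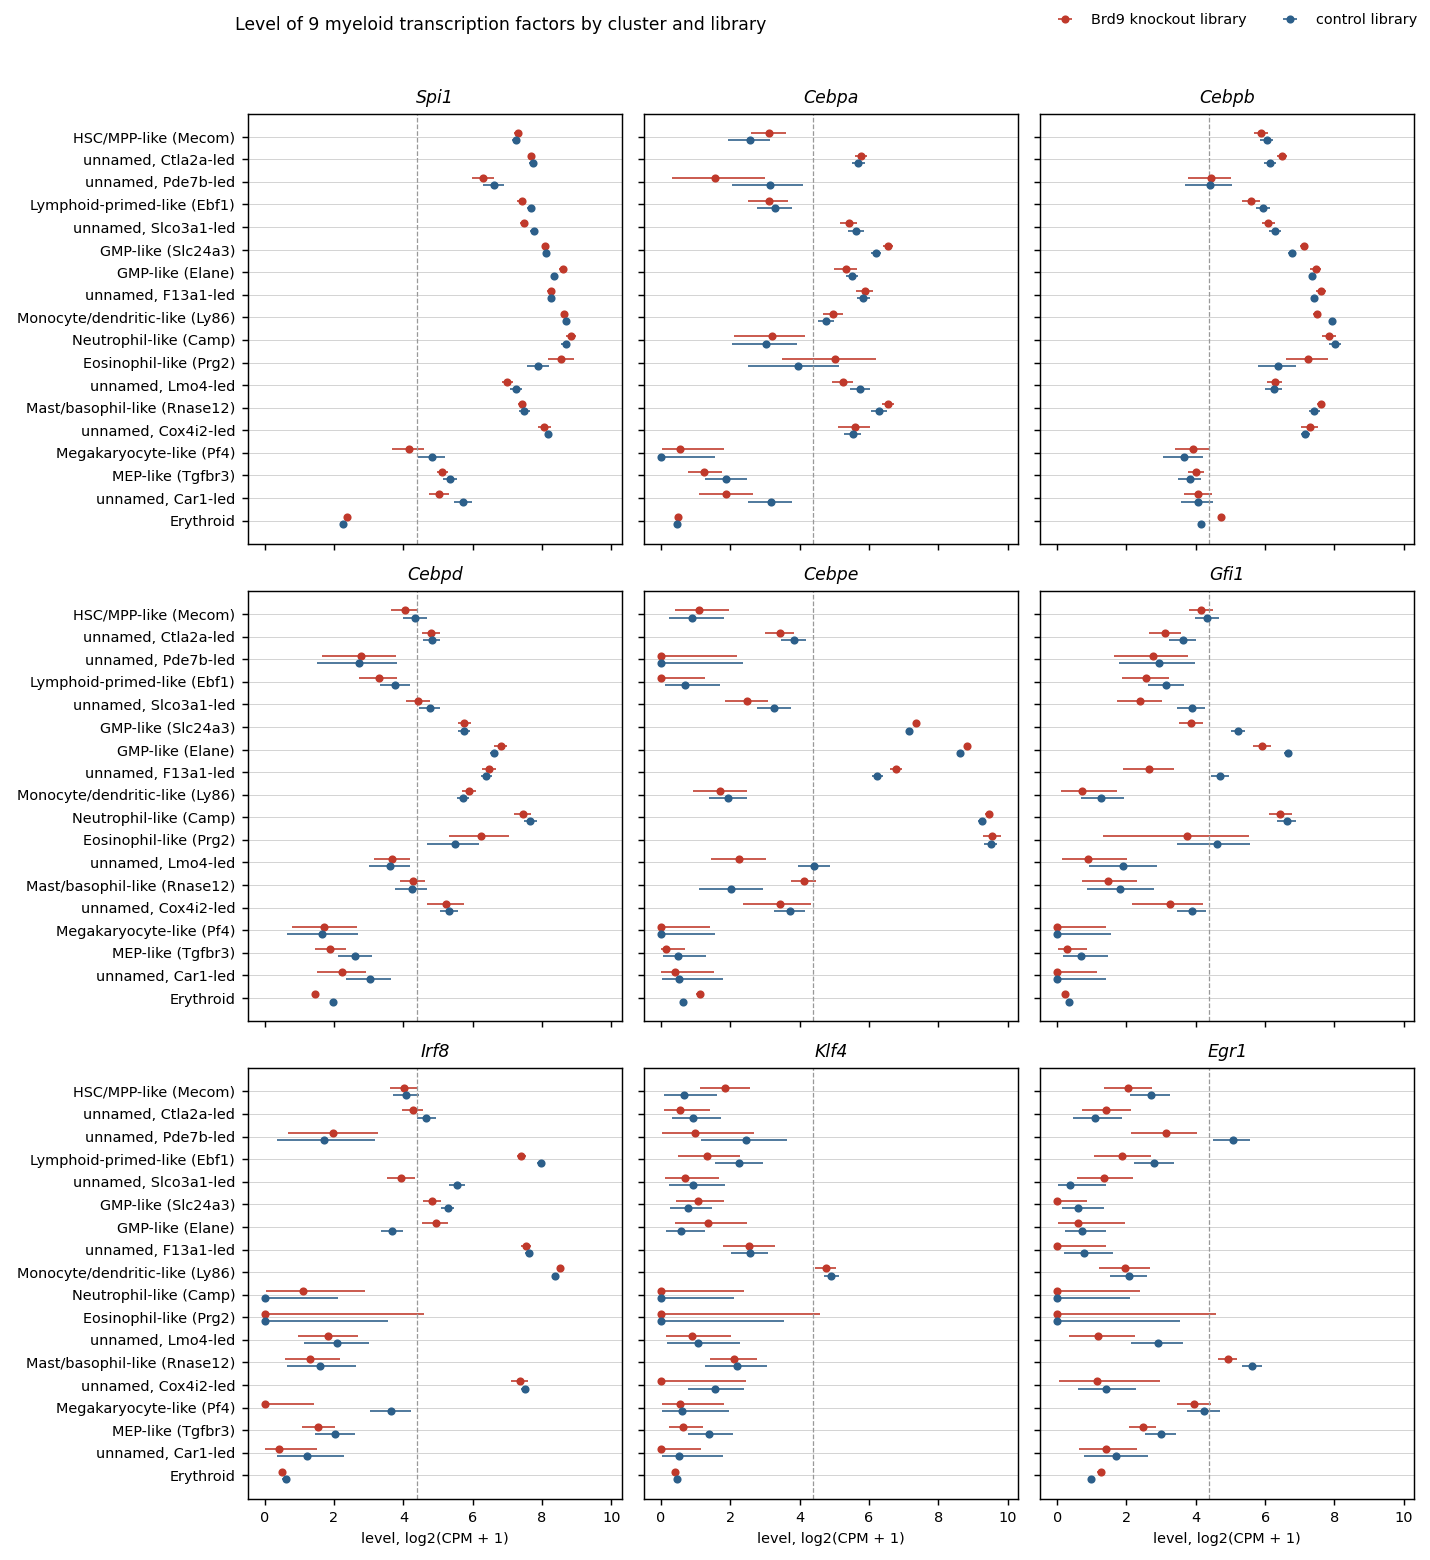
Level of each of the 9 factors, as log2(CPM + 1), in 17 clusters and in erythroid cells, for the knockout (red) and control (blue) library. Points are summed UMIs of the cells of a cluster, bars the 95% Poisson interval, and the dashed line 20 CPM, the lowest level at which a ratio was read; red and blue points lie together for most factors, and the Gfi1 points part in the GMP and F13a1-led clusters.

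Of the C/EBP genes, Cebpa and Cebpe had opposite orders of level across the GMP and neutrophil-like clusters. No order of these clusters in development was measured. Cebpa, which opens the granulocyte-monocyte path, was highest in mast/basophil-like cells (92.9 and 77.5 CPM in knockout and control) and in the Slc24a3-led GMP cluster (92.8 and 72.4 CPM, log2 ratio 0.36, 0.16 to 0.56). Its level was lower in the Elane-led cluster, at 39.4 and 44.7 CPM, and lower again in neutrophil-like cells, at 8.13 and 7.22 CPM. Cebpe ran the other way: 164 and 143 CPM in the Slc24a3-led cluster, 453 and 394 CPM in the Elane-led cluster, and 703 and 612 CPM in neutrophil-like cells. Cebpe intervals of neighbouring clusters in this list did not overlap in either library. Eosinophil-like cells, 12 in the knockout and 17 in the control, held 751 and 730 CPM of Cebpe. Monocyte/dendritic-like cells held 2.24 and 2.85 CPM, against 1.16 and 0.559 CPM in erythroid cells. A single erythroid cell of each library held 26.25% of the knockout and 31.71% of the control erythroid Cebpe UMIs.

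Within GMP and neutrophil-like clusters the knockout to control ratios of Cebpe lay between 0.198 and 0.203 on the log2 scale. In the F13a1-led cluster Cebpe was at 109 CPM (96.2 to 124) and 74.8 CPM (66.8 to 83.5), a log2 ratio of 0.55 (0.30 to 0.79). The summed level of the 12 neutrophil markers in that cluster was 4748 CPM in knockout and 1382 CPM in control cells; its part in the Cebpe value was not tested. Cebpe gave 0.44 in female and 0.91 in male cells there. In the Lmo4-led unnamed cluster, where 8.81% of all genes lay beyond 0.5, Cebpa was at 37.1 and 52.9 CPM (-0.51). The Cebpa ratio stayed beyond 0.5 under 4 of 7 alternatives. Cebpe was at 3.80 and 20.5 CPM there, but a single cell held 66.7% of the knockout and 57.9% of the control Cebpe UMIs. In the Ctla2a-led and Cox4i2-led unnamed clusters 0 of 5 members tested lay beyond 0.5, against 2.71% and 12.3% of all genes.

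Cebpb and Cebpd, induced by inflammatory and growth signals, were highest in neutrophil-like cells. Cebpd there reached 173 and 201 CPM in knockout and control, with intervals above those of the next cluster in both libraries, and at 111 and 97.2 CPM in the Elane-led GMP cluster. Cebpb was at 229 and 258 CPM in neutrophil-like cells and at 180 and 243 CPM in monocyte/dendritic-like cells (log2 ratio -0.43, -0.57 to -0.29). Of the 9 factors, only Cebpb reached 20 CPM in erythroid cells, and in the knockout library only. It was at 25.4 CPM (24.7 to 26.1) and 16.7 CPM (16.1 to 17.2), a log2 ratio of 0.61 (0.55 to 0.67). It thus met the minimum for reading a ratio through the library where it was higher. Over all 6045 genes tested in erythroid cells, 0.993% lay beyond 0.5 in either direction. The Cebpb ratio in erythroid cells was between 0.55 and 0.62 under 7 alternatives.

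Gfi1 was lower in the knockout in both GMP clusters and in the F13a1-led cluster. The Slc24a3-led cluster held 13.5 CPM (10.4 to 17.3, 62 UMIs) in knockout against 36.4 CPM (31.6 to 41.7, 207 UMIs) in control cells, a log2 ratio of -1.43 (-1.86 to -1.01). The Elane-led cluster held 59.7 CPM (49.2 to 71.6) and 99.9 CPM (92.2 to 108), a log2 ratio of -0.74 (-1.04 to -0.45). In the F13a1-led cluster the values were 5.32 CPM (2.75 to 9.29, 12 UMIs) and 25.1 CPM (20.6 to 30.3, 107 UMIs), a log2 ratio of -2.24 (-3.24 to -1.37). The intervals of the libraries did not overlap in any of these clusters. Over all genes tested, 3.82%, 7.22% and 6.41% lay beyond 0.5 in either direction in the Slc24a3-led, Elane-led and F13a1-led clusters.

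In neutrophil-like cells Gfi1 was at 86.0 CPM (67.5 to 108) and 97.5 CPM (80.0 to 118), and in HSC/MPP-like cells at 16.9 CPM (12.8 to 21.7) and 19.0 CPM (14.7 to 24.2), both with a log2 ratio of -0.18 and overlapping intervals. The interval of the ratio was -0.63 to 0.26 in neutrophil-like and -0.71 to 0.35 in HSC/MPP-like cells, so a ratio of -0.5 lies inside both. In the Slco3a1-led unnamed cluster Gfi1 was at 4.28 CPM (2.34 to 7.19) and 13.7 CPM (10.0 to 18.3), a log2 ratio of -1.68 (-2.66 to -0.79) between intervals that did not overlap, though both levels were under 20 CPM. In eosinophil-like cells the ratio was -0.90 (-4.17 to 1.43), from 2 and 8 UMIs. Gfi1 was lower in the knockout in each of the 16 clusters where it had a UMI in either library, 11 of which held it at under 20 CPM in both libraries. It was at 0.640 and 1.43 CPM in monocyte/dendritic-like and 0.170 and 0.273 CPM in erythroid cells, and no Gfi1 UMI was counted in megakaryocyte-like or Car1-led cells.

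Fewer GMP cells had a Gfi1 UMI in the knockout. After thinning, the share was 20.2% (13.6 to 28.1) against 44.4% (36.3 to 52.7) in the Slc24a3-led cluster, 51.5% (39.0 to 63.8) against 78.6% (72.4 to 84.0) in the Elane-led cluster and 8.57% (3.21 to 17.7) against 33.9% (25.4 to 43.3) in the F13a1-led cluster. Thinning left out 4, 3 and 2 knockout and 1, 16 and 1 control cells of these clusters as too shallow, and without it the shares were 34.6% and 61.2%, 64.8% and 86.0%, and 15.3% and 47.4%. Erythroid cells, which should lack the gene, gave 0.265% and 0.423%, and their median depth was 39030 and 41220 UMIs, compared with 33490 and 35510 in the Slc24a3-led cluster. In HSC/MPP-like cells the shares were 16.9% and 19.2%, though 83 of the 172 knockout and 96 of the 174 control cells were too shallow to be thinned.

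**Figure D2:**
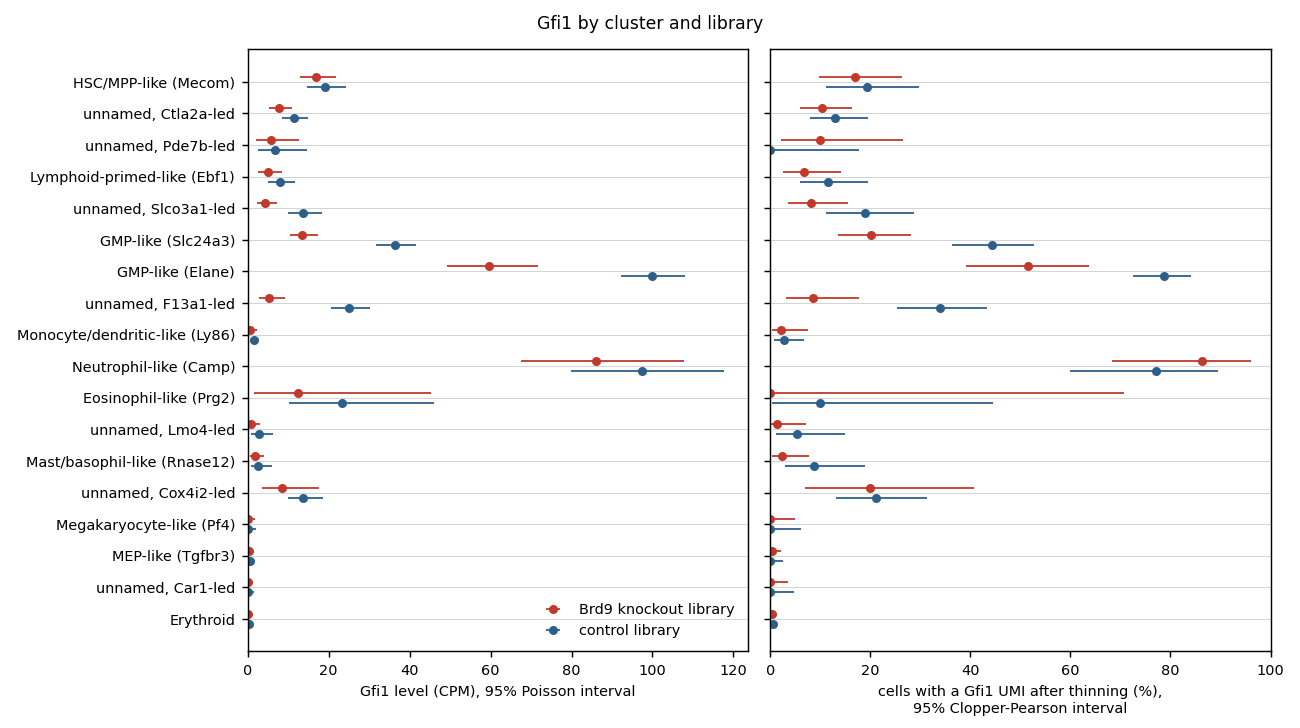
Gfi1 in each cluster and library: on the left the level in CPM with its 95% Poisson interval, on the right the share of cells with a UMI after thinning to 18526 UMIs with its 95% Clopper-Pearson interval. Knockout points (red) lie left of control points (blue), without overlap of the bars, in the GMP and F13a1-led clusters, and in the Slco3a1-led cluster for the level only.

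Both GMP clusters together gave 27.2 CPM (23.3 to 31.5) in knockout and 69.5 CPM (64.9 to 74.4) in control cells, a log2 ratio of -1.36, in part because the cluster with more Gfi1 held a smaller share of the knockout cells. Over 14 alternatives this ratio lay between -1.49 and -0.91, though some alternatives regrouped the cells and named other clusters GMP. The ratio was -1.03 in female and -1.43 in male cells. In the Slc24a3-led cluster Gfi1 gave -1.55 in female and -1.39 in male cells, and in the F13a1-led cluster -2.19 and -2.32. In the Elane-led cluster it gave -0.25 (-0.76 to 0.27) in female cells, of which the control had 29, and -0.91 (-1.36 to -0.49) in male cells.

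Irf8, which directs monocyte and dendritic cells, was highest in monocyte/dendritic-like cells, with 363 CPM (342 to 385) in knockout against 330 CPM (315 to 345) in control cells. The F13a1-led cluster held 186 and 196 CPM, the Slc24a3-led GMP cluster 27.5 and 37.8 CPM (log2 ratio -0.46, -0.79 to -0.14), and neutrophil-like cells 1.16 and 0 CPM. In these clusters no ratio passed 0.5. In lymphoid-primed-like cells Irf8 was at 168 CPM (153 to 184) and 249 CPM (232 to 267), a log2 ratio of -0.57 (-0.74 to -0.40), the only member of 3 tested there beyond 0.5, against 7.0% of all genes. The sign differed by sex: 0.49 in female cells (26 in the control) and -0.84 in male cells.

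A pair of clusters differed more in Irf8 at low levels. In the Elane-led GMP cluster it stood at 29.6 and 11.7 CPM (log2 ratio 1.33), where a single knockout cell held 43.9% of the UMIs, and it gave -0.27 in female and 2.10 in male cells. In the Slco3a1-led unnamed cluster it stood at 14.4 CPM (10.6 to 19.1) and 45.9 CPM (38.9 to 53.7), a log2 ratio of -1.67 (-2.18 to -1.19), against 5.42% of all genes tested there beyond 0.5. This ratio was -0.49 (-1.59 to 0.73) in female cells, of which the control had 12, and -2.0 (-2.80 to -1.29) in male cells. Klf4, a zinc finger factor of monocyte differentiation, reached 20 CPM only in monocyte/dendritic-like cells, at 25.9 CPM (20.6 to 32.2) and 29.2 CPM (24.9 to 34.1), and was under 5 CPM in every other cluster. After thinning, a Klf4 UMI was found in 31.2% of the knockout and 38.7% of the control cells there, against 0.735% and 0.785% of erythroid cells.

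Egr1, an immediate early gene that rises within minutes of growth signals or handling, was highest in mast/basophil-like cells. These held 29.3 CPM (23.8 to 35.7) in knockout against 48.4 CPM (39.2 to 59.2) in control cells, a log2 ratio of -0.73 (-1.15 to -0.30), where 10.3% of all genes lay beyond 0.5. The ratio stayed lower beyond 0.5 under 8 of 14 alternatives. A single knockout cell held 23.5% of the Egr1 UMIs, and the ratio was -3.26 in female cells, of which the control had 8, and 0.22 in male cells. Of 11 measured genes of an immediate early list in these cells, 1 was higher and 4 were lower beyond 0.5, with a median of -0.42 against 0.06 over all genes. In the Pde7b-led unnamed cluster Egr1 was at 7.80 and 32.5 CPM (-2.06, -3.40 to -0.89, 26.0% of all genes beyond 0.5), from 8 and 29 UMIs. There it was -0.020 in female cells (5 and 2 UMIs) and -2.80 in male cells (3 and 27 UMIs). The GMP, F13a1-led and neutrophil-like clusters held under 1 CPM of Egr1 in both libraries.

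**Figure D3:**
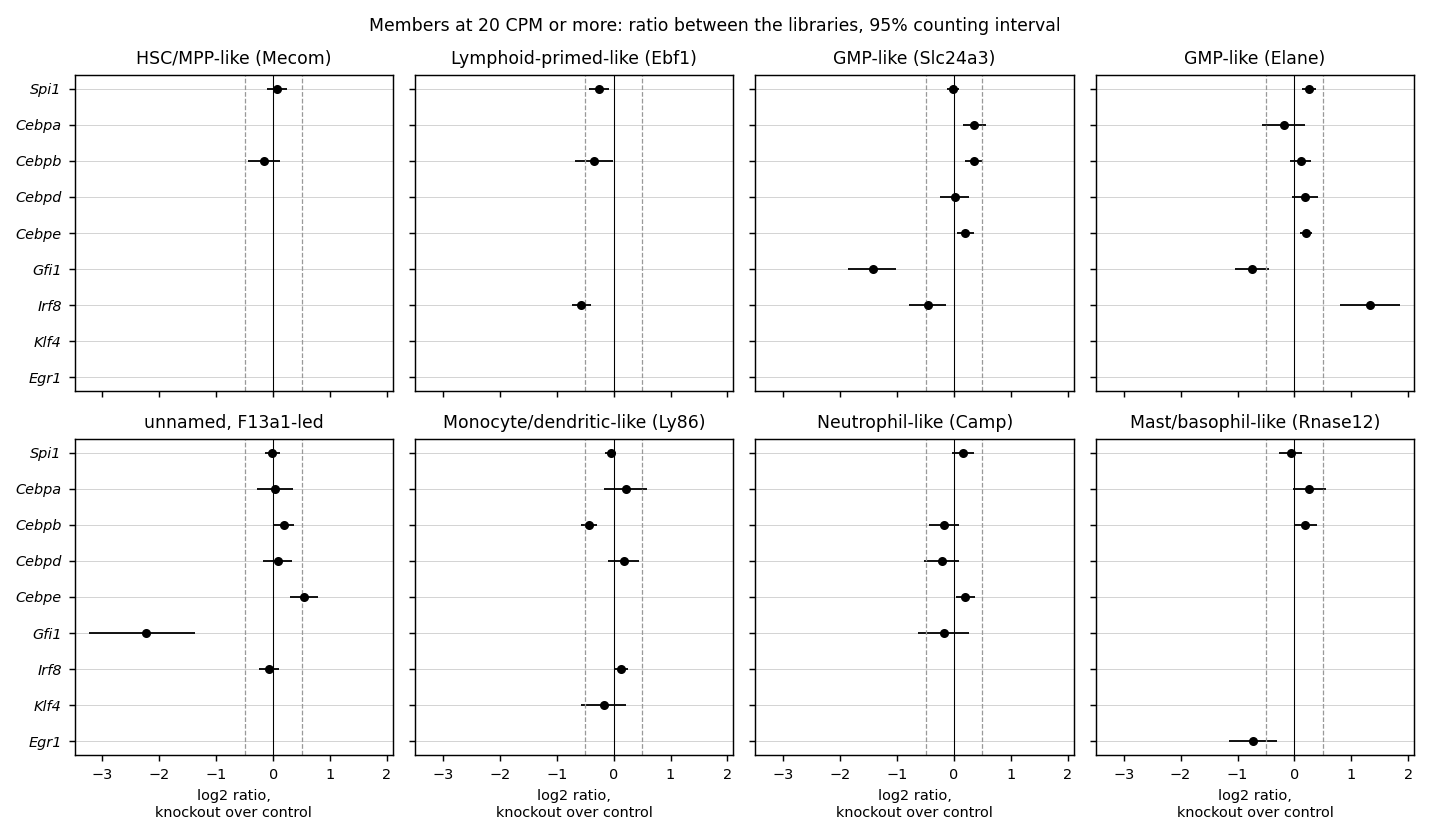
Log2 ratio of knockout over control for each factor at 20 CPM or more in either library, in 8 clusters, with the 95% counting interval; dashed lines mark 0.5 in either direction. Most points lie between the dashed lines, while Gfi1 lies to the left in the GMP and F13a1-led clusters.

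Most values of the factors in named classes lay within 0.5. Over 6 classes (HSC/MPP-like, lymphoid-primed-like, both GMP clusters together, neutrophil-like, monocyte/dendritic-like and mast/basophil-like), 27 of the 54 values of a factor in a class reached 20 CPM in either library. Of these, 0 were higher and 3 were lower beyond 0.5: Irf8 in lymphoid-primed-like, Gfi1 in GMP and Egr1 in mast/basophil-like cells. The share of all genes beyond 0.5 was 3.58% in HSC/MPP-like, 3.84% in GMP, 4.09% in monocyte/dendritic-like and 24.2% in neutrophil-like cells, where 36 and 52 cells were summed and the median over all genes was 0.15.

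Summed over whole libraries, the factors differed in another way, since the mix of cells entered. Spi1 was at 36.4 and 48.4 CPM, a log2 ratio of -0.41 (-0.45 to -0.37), and Cebpb at 37.5 and 35.5 CPM (0.08), the only members at 20 CPM, and neither passed 0.5, against 1.32% of all genes. The other 7 members lay below 20 CPM: Gfi1 at 1.75 and 4.98 CPM (-1.51, -1.67 to -1.36), Irf8 at 10.2 and 17.5 CPM (-0.77), Cebpd at 7.0 and 10.8 CPM (-0.62) and Cebpe at 11.7 and 17.6 CPM (-0.58). When knockout clusters were weighted to the control shares, the log2 ratio of Spi1 was within 0.01 of 0, and it was -0.10 for Irf8, -0.10 for Cebpd, 0.23 for Cebpe and -0.83 for Gfi1. In whole libraries, fewer cells of a type and less RNA per cell cannot be told apart.

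**Figure D4:**
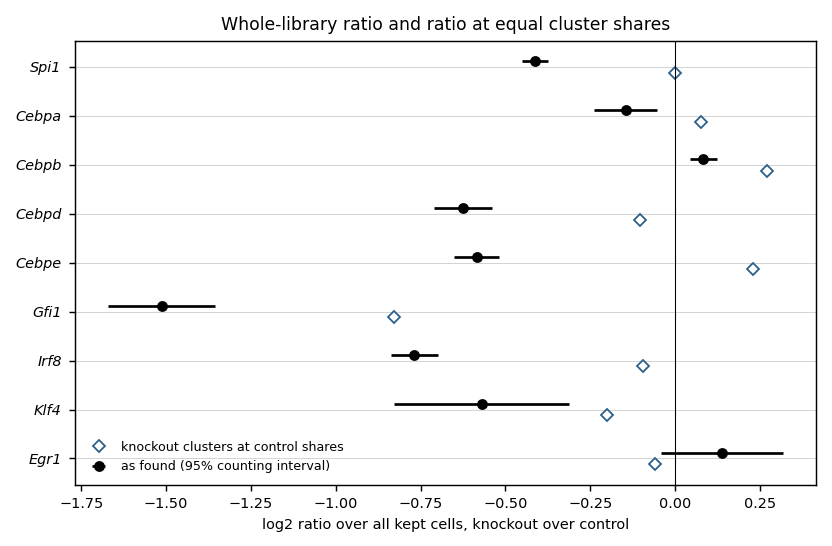
Log2 ratio of knockout over control over all kept cells for the 9 factors, as found (black, with the 95% counting interval) and with knockout clusters at the control shares (open diamonds, no interval). The diamonds of Spi1, Cebpd and Irf8 lie near 0 and that of Gfi1 stays at -0.83.

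UMIs of 2 factors in the same cell were counted after thinning and are set beside the product of the single shares, as a description. In the Slc24a3-led cluster 14.6% of control cells (22 of 151) had UMIs of both Gfi1 and Irf8, with a product of 16.8%, and 3.88% of knockout cells (5 of 129), with a product of 5.31%. In the unnamed F13a1-led cluster 27.8% of control cells had both, with a product of 29.2%, and 4.29% of knockout cells, with a product of 6.86%. Among erythroid cells the single shares in knockout and control were 0.265% and 0.423% for Gfi1, 0.694% and 0.885% for Irf8, and 0.510% and 0.503% for Cebpe. Among cells with a Cebpe UMI, Gfi1 was found in 22.8% of 92 knockout and 46.7% of 105 control cells of the Slc24a3-led cluster, and in 50% of 64 and 79.6% of 201 cells of the Elane-led cluster. In the control Elane-led cluster 5.56% of the 162 cells with a Gfi1 UMI had Irf8, against 9.71% of all its cells. Cebpa and Cebpe were found together in 58.9% of knockout and 48.3% of control cells of the Slc24a3-led cluster.

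Across 33 points (clusters with 30 or more cells, by library), the genes with the levels most like each factor were found by Pearson's r of log2(CPM + 1), as a description over 8564 genes. The points share libraries and many cells of related types. For Spi1 they were Nfam1, an immune receptor adaptor (r = 0.98), Cd52 and Tm6sf1, for Cebpa Echs1, a fatty acid oxidation enzyme (0.88), the granule enzyme gene Mpo and Arl11, and for Cebpb Ncf4 (0.92), a subunit of the phagocyte oxidase, Atp6v0b and Vsir. Cebpd went with Abcd2 (0.96), Mtus1 and the granule protease Prtn3, and Cebpe with Alas1 (0.97), the housekeeping form of the first heme synthesis enzyme, Cldn15 and Sgms2. Gfi1 went with B4galt6 (0.90), Nrg4 and Msra, Irf8 with Irf5 (0.92), Ly86 and Apba1, Klf4 with Pld4 (0.85), Psap and BC005537, and Egr1 with Dnpep (0.83), the AP-1 gene Fosb and Itga2. Among the members, Cebpb and Cebpd were most alike (0.91).

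Genes known to act with these factors were counted in both GMP clusters summed, in lists chosen with earlier results known. Of 11 measured genes of a C/EBP target list (granule and myeloid genes), 7 were lower and 0 higher beyond 0.5, with a median of -0.57 against 0.04 over all genes, of which 3.84% lay beyond 0.5 in either direction. The sum mixes clusters whose shares differed. In the Slc24a3-led cluster alone 3 of 8 were lower, 0 were higher and the median was -0.16, against 3.82% of all genes. In the Elane-led cluster alone 4 of 12 were lower, 1 was higher and the median was -0.39, against 7.22%. Over both clusters Camp, an antimicrobial peptide gene, stood at 2.46 and 86.5 CPM, Fcnb at 11.5 and 109.7 CPM, Hp at 96.7 and 333 CPM, and Elane, the neutrophil elastase gene, at 575 and 1706 CPM. Within the Slc24a3-led cluster Elane was at 353 and 396 CPM, and within the Elane-led cluster at 1104 and 2906 CPM. Several of these genes are also GMP or neutrophil markers and could shape the clusters.

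Of 12 measured PU.1 targets in both GMP clusters summed, 2 were higher and 0 lower, with a median of 0.19. Over all genes in this sum the median was 0.04, and 3.84% lay beyond 0.5 in either direction. Csf2rb, a shared receptor chain for growth factors, was at 67.4 and 41.2 CPM (0.71) and Itgb2, a leukocyte integrin, at 26.9 and 19.0 CPM (0.50). In the Slc24a3-led cluster alone 4 of 12 were higher, and 1 was lower, Csf3r, a growth factor receptor gene, at 46.0 and 65.9 CPM (-0.52). The median there was 0.20, against 0.01 over all genes, of which 3.82% lay beyond 0.5. In the Elane-led cluster alone 4 of 14 were higher and 0 lower, with a median of 0.28. All genes there had a median of 0.03, and 7.22% lay beyond 0.5. In both clusters summed, none of 7 measured genes of the GFI1 partner and target list passed 0.5, with a median of 0.13, and Meis1, a stem cell factor, was at 58.5 and 41.7 CPM (0.49). Within the Elane-led cluster Meis1 was at 44.6 and 20.9 CPM (1.09), the only 1 of 6 measured genes of that list beyond 0.5 there. Within the Slc24a3-led cluster 0 of 7 passed 0.5. Of 3 measured IRF8 targets 1 was lower, Bcl11a at 37.1 and 61.6 CPM (-0.73), and 0 of 5 measured immediate early genes passed 0.5. Of 21 measured genes on a list of other blood factors, 2 were higher, Gata2 at 49.6 and 17.6 CPM (1.5) and Ikzf2 at 353 and 203 CPM (0.80). Bcl11a was the only gene of that list that was lower. This sum mixes clusters whose shares differed. In the Slc24a3-led cluster alone 1 of 21 was higher and 1 lower, against 3.82% of all genes. In the Elane-led cluster alone 2 of 20 were higher and 1 lower, against 7.22%.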

How the data were processed

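UMI counts of 2 libraries were used, 1 per genotype, prepared with a 10x Genomics kit that reads RNA 3' ends, per the labels' protocols. The authors deposited whole-number UMI counts per gene and barcode, made with Cell Ranger 7.2.0 on mm10 per the submitters' processing notes. The sources used here do not say if introns were counted. Cells with at least 1000 genes, 2000 UMIs and at most 10% mitochondrial UMIs were kept (7001 and 7100), and Scrublet in scanpy 1.11.5 marked 244 (3.49%) and 240 (3.38%) as doublets, which were removed.

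Both libraries were clustered together on 3000 variable genes, 30 components, 15 neighbours and Leiden resolution 1, without the 9 members, Brd9, and cell-cycle, sex-linked, mitochondrial and ribosomal genes. A first clustering merged GMP with neutrophil cells. Clusters with under 1500 CPM of non-globin erythroid markers, 7 of 24, were therefore clustered again. This step, the naming margins (at least 3 markers among the top 30 genes and 2 more than any other list), thinning to 10000 UMIs, the member pairs and which values count as main ones were chosen after seeing the data. The members and gene lists were chosen with earlier results of these data known. The planned comparison of C/EBP proteins was not made.

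UMIs were summed per cluster and library and given as CPM. A ratio was read at 20 CPM or more in either library, and 0.5 on the log2 scale marks a difference. Levels have exact Poisson, ratios conditional exact and shares Clopper-Pearson 95% intervals, and PCR copies were collapsed by UMI. Named genes were the 9 members, the 3 genes most like each, and up to 4 per list by size of ratio in GMP cells. On simulated counts of 6180 genes in the GMP comparison, 95.3% of unchanged genes had the true value inside their interval. So did 98.0% of 50 genes lowered by 1 on the log2 scale and 90.0% of 50 lowered by 2. These counts were drawn from the Poisson model that the intervals assume. They check the calculation and cannot show how the intervals hold for real counts, where cells and embryos differ. TMM factors came from edgeR 4.0.16.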

Additional observations from a re-analysis of the deposited data

Results flagged for a closer look

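Clusters with at least 50 cells in each library were compared, which left out eosinophil-like cells. In 5 places among them a factor's knockout to control ratio lay beyond 0.5 on the log2 scale and had the opposite sign in another cluster. The difference between clusters was not tested. Cebpe gave 0.55 in the F13a1-led cluster and -2.43 in the Lmo4-led cluster. Irf8 gave -0.57 in lymphoid-primed-like cells, 1.33 in the Elane-led GMP cluster and -1.67 in the Slco3a1-led cluster. A single cell held 66.7% of the knockout Cebpe UMIs in the Lmo4-led cluster and 43.9% of the knockout Irf8 UMIs in the Elane-led cluster.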

How the results depend on the processing

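The Gfi1 ratio in the class named GMP kept its direction and stayed beyond 0.5 under 14 alternatives. Some of these regrouped the cells, so that the class was not the same pair of clusters. With doublets kept it was a single cluster led by Ly6c2 and F13a1, with 86 knockout and 158 control cells. The ratio was -0.91 with doublets kept and -1.03 in female cells of the main GMP clusters. Over the whole library Gfi1 gave -1.15 in female and -1.35 in male cells and -0.83 with clusters at control shares. The count of factor-by-class values higher beyond 0.5, 0 in the report, was 1 at resolution 0.6, 1 with stricter cell filters, 1 in male cells, 2 with doublets kept, 2 with marker scores in place of clusters and 4 with a minimum of 3 UMIs. The count lower, 3 in the report, was 1 at resolution 1.5, 5 in female cells, 6 with doublets kept, 9 with marker scores and 11 with a minimum of 3 UMIs. The cause of these moves was not tested, except that the last setting reads 50 values in place of 27. The share of all genes beyond 0.5 was counted under the changed minimum for GMP cells only, and not under the other settings. A single clustering step gave no such counts, since not every class could be named.

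Signs reversed in female cells alone for Irf8 in lymphoid-primed-like cells (0.49), Irf8 in the Elane-led GMP cluster (-0.27), Spi1 in the Car1-led cluster (0.021), Cebpb in eosinophil-like cells (-0.95) and Cebpd in eosinophil-like cells (-0.30). In male cells alone they reversed for Spi1 in megakaryocyte-like cells (0.51), Egr1 in mast/basophil-like cells (0.22) and Cebpa in eosinophil-like cells (-0.48). Cebpe over the whole library reversed to 0.23 at control shares. The cause was not tested. Of the ratios within clusters under an alternative, 640 lay inside the counting interval of the main ratio, 89 lay outside it and 8 reversed. A reversal was counted only where the main ratio lay beyond 0.5. Smaller ratios could change sign and still fall in the other groups. All genes in GMP cells beyond 0.5 made up 3.84% at 20 CPM, 2.95% at 50 CPM and 25.3% with 3 UMIs only. Depth limits values under 20 CPM, and with 1 library per genotype the spread between embryos is unknown. No paired analysis was possible because there was 1 library per genotype.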
